A study of Homo sapiens with 12 samples.

Results

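The NLRP genes described here, 9 in all, lie in and around band 19q13.42 on human chromosome 19, and they were followed through an experiment that activated or repressed LTR5HS elements. They are NLRP12, NLRP7, NLRP2, NLRP9, NLRP11, NLRP4, NLRP13, NLRP8 and NLRP5, in order along the chromosome. They were chosen by name with earlier results of these data known, and all 9 are among the 26641 genes of the deposited count table. RNA-seq was performed on 6 lines of NCCIT, a human embryonal carcinoma line, with 2 biological replicates per line. Each line carried a doxycycline-inducible S. pyogenes dCas9 fused either to the activation domain VPR (dCas9-VPR, CRISPRa) or to the repression domain KRAB (dCas9-KRAB, CRISPRi), together with 1 of 3 guide arrays delivered on a PiggyBac transposon. Doxycycline was given for 4 days to all lines, controls included. LTR5HS Sp carries guides to LTR5HS on the S. pyogenes scaffold and is called recruitment. LTR5HS Sa carries the S. aureus scaffold, nontarget Sp carries guides without a human target, and these 2 arrays were pooled as control, which gave 2 recruitment and 4 control libraries per fusion. Array and cell line cannot be told apart, because each combination was a single line.

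NLRP proteins are cytosolic NOD-like receptors built from a pyrin domain, a nucleotide-binding NACHT domain and leucine-rich repeats. Some relatives nucleate inflammasomes, which activate caspase-1, whereas several genes of this cluster are known mainly from oocytes and early embryos. NLRP5 (MATER) belongs to the subcortical maternal complex of the egg, NLRP7 is mutated in familial recurrent hydatidiform mole, and NLRP12 is a regulator of inflammatory signalling in myeloid cells. LTR5HS elements are the long terminal repeats of the youngest HERVK proviruses, and they can act as promoters or enhancers.

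The genome was first searched for places that the LTR5HS Sp guides could pair with. The study predicts that the array also pairs with some of the related LTR5A and LTR5B elements. The repeat class of the places found was not determined here. The array has 12 guides of 16 bases, and an exact match followed by an NGG motif was required. On the 24 primary chromosomes of hg38 there were 2938 such sites in 950 clusters, where a cluster joins sites at most 1000 bp apart. Of the clusters, 807 overlapped a dCas9 peak of the study. The study describes peak calling in NCCIT lines with dCas9-GFP, whereas the RNA-seq lines carried dCas9-VPR or dCas9-KRAB. An overlap with a peak is therefore not a measure of binding in the RNA-seq lines. Of the 9 members, 4 had a cluster within 20 kb of their annotated start in GENCODE 44, against 2.23% of the 23287 genes of the table that could be placed. NLRP2 and NLRP7 have the same nearest cluster, and the share is a description of a chosen set.

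The cluster near NLRP12 has the most exact sites in the region. With up to 1 mismatch it holds 8 sites, as does a cluster at chr19:53497965-53498578, and the 2 clusters inside NLRP7 hold 7 each. The NLRP12 cluster spans chr19:53838951-53839572, is intergenic, lies 14.6 kb upstream of the NLRP12 start and overlaps a dCas9 peak. Its 6 exact sites are shown because NLRP12 was called with both fusions. They are printed 5′ to 3′ on the guide's strand, with the NGG motif in capitals.
LTR5HS-7, minus strand, chr19:53838951-53838969: aaccttggacaataccTGG
LTR5HS-4, plus strand, chr19:53839031-53839049: agcccgacacccgtaaAGG
LTR5HS-8, plus strand, chr19:53839044-53839062: taaagggtctgtgctgAGG
LTR5HS-9, minus strand, chr19:53839134-53839152: gacattccattgcccaGGG
LTR5HS-2, plus strand, chr19:53839197-53839215: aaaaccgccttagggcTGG
LTR5HS-1, plus strand, chr19:53839424-53839442: tactaagggaactcagAGG

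A pair of clusters lies inside NLRP7, and both overlap a dCas9 peak. The first, at chr19:54944053-54944644, is in intron 3 of the canonical transcript and holds exact sites of 3 guides. The second, at chr19:54950304-54950924, is in intron 1, holds exact sites of 2 guides and lies 15.4 kb upstream of the start of NLRP2. RefSeq places the NLRP7 start elsewhere, at position 54947530, which leaves the first cluster 2.9 kb downstream and the second 2.8 kb upstream of it. The exact sites of the second cluster are shown because it is the one nearest to both genes.
LTR5HS-2, minus strand, chr19:54950660-54950678: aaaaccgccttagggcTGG
LTR5HS-8, minus strand, chr19:54950813-54950831: taaagggtctgtgctgAGG

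The last cluster near a member is in intron 4 of NLRP9, 19.6 kb downstream of its start, and it overlaps a dCas9 peak. It holds 1 exact site, which has the same letters as the LTR5HS-8 sites above.
LTR5HS-8, plus strand, chr19:55718312-55718330: taaagggtctgtgctgAGG
It is also the nearest cluster to the remaining members, at 113.2 kb from NLRP11, 117.7 kb from NLRP4, 213.5 kb from NLRP13, 229.0 kb from NLRP8 and 280.9 kb from NLRP5.

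**Figure D1:**
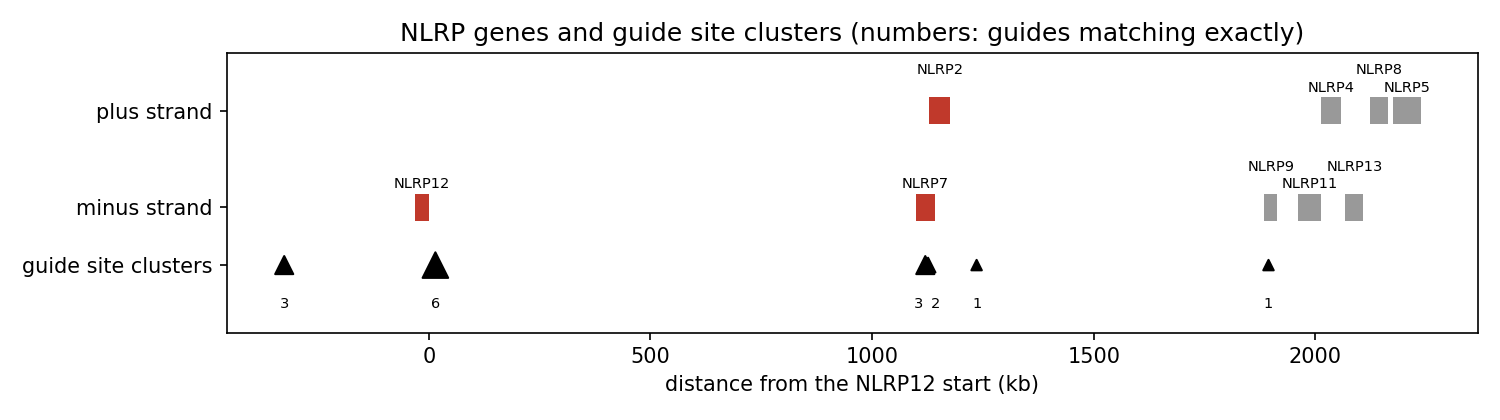
The 9 NLRP genes (bars, by strand) and the guide site clusters (triangles, sized and numbered by how many guides match exactly) against the distance from the NLRP12 start in kb. Red bars are NLRP12, NLRP7 and NLRP2, the members that were higher with CRISPRa. The cluster of 6 guides sits beside NLRP12, and the clusters of 3 and 2 guides sit inside NLRP7.

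Libraries held between 13601701 and 69797411 counts, and dCas9-KRAB nontarget Sp replicate 2 was the deepest. Levels are given as CPM, a gene's count scaled to the TMM-normalised size of its library, and 3 counts correspond to 0.044 to 0.225 CPM depending on the library. TMM was run separately for each fusion, so levels of the 2 fusions were not put on one scale. CPM in the comparison of patterns over all 12 libraries came from one joint normalisation. Counting intervals and this floor cover counting error only. The embryonal carcinoma label was checked with POU5F1, SOX2, NANOG, LIN28A, DPPA4 and TDGF1, all of which were detected with both fusions. Their summed level was 2616 to 3096 CPM in the dCas9-KRAB libraries and 708 to 1388 CPM in the dCas9-VPR libraries. The sum hides larger differences between the control lines, where NANOG held 111 to 177 CPM with dCas9-KRAB and 1.09 to 5.13 CPM with dCas9-VPR, and TDGF1 held 144 to 241 and 9.44 to 24.7 CPM. The 5 myeloid markers summed to between 0.749 and 2.8 CPM and the 5 oocyte markers to between 1.09 and 2.75 CPM. The leukocyte marker PTPRC had at most 1 count in a library, and the oocyte factor BMP15 had 0 in all 12. SOX2, a pluripotency factor, fell on recruitment of dCas9-VPR, from 280 to 467 CPM in the controls to 136 and 182 CPM (edgeR adjusted p = 0.00735), and CSF1R, a macrophage receptor gene, was 2.19-fold lower (adjusted p = 0.0388, not called by DESeq2). CD14, the other myeloid marker that could be tested, had a log2 fold change of 1.31 in the other direction (SE 0.48, edgeR adjusted p = 0.0784). POU5F1, NANOG, LIN28A, DPPA4 and TDGF1 did not pass, and the part of these markers in the results below was not tested.

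With CRISPRa, 3 members rose on recruitment and none fell, out of 6 with enough counts to test by edgeR's quasi-likelihood test at an adjusted p of 0.05. Over all 16271 genes tested, 15.7% were higher and 12.3% lower. With CRISPRi, 2 members fell and none rose out of 5 tested, against 1.94% lower and 0.831% higher over 15520 genes. The filter on low counts chose some of these members by the group in which they were high. NLRP7 and NLRP9 passed it with CRISPRa through their recruitment libraries, whereas NLRP11 with CRISPRa and NLRP7 with CRISPRi passed through their controls. The counts of members called are therefore a description. NLRP12 and NLRP7 moved with both fusions in opposite directions, and NLRP2 rose with CRISPRa. In bulk libraries a change in the number of cells that transcribe a gene and a change in RNA per cell cannot be told apart.

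NLRP12 rose with CRISPRa, and on recruitment its CPM was higher than that of any other member. The recruitment libraries held 65.4 and 80.8 CPM. The LTR5HS Sa libraries held 1.82 and 0.934 CPM, and the nontarget Sp libraries held 1.11 and 1.09 CPM. The means were 73.1 ± 10.9 CPM on recruitment (SD, n = 2) and 1.24 ± 0.395 CPM in the controls (SD, n = 4). The fold was 58.2 (log2 fold change 5.86, SE 0.23, edgeR adjusted p = 2.6e-06).

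The same gene fell with CRISPRi. It held 0.65 and 0.848 CPM on recruitment of dCas9-KRAB, whereas the LTR5HS Sa controls held 8.3 and 4.05 CPM and the nontarget Sp controls 8.57 and 8.04 CPM. The level was 9.78-fold lower on recruitment (log2 fold change -3.29, SE 0.39, edgeR adjusted p = 0.00122). The control libraries differed between fusions too, with 0.934 to 1.82 CPM for dCas9-VPR and 4.05 to 8.57 CPM for dCas9-KRAB. That difference between lines was not tested, and CPM was normalised separately for each fusion.

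NLRP7 had few counts and moved like NLRP12. With dCas9-VPR the recruitment libraries held 53 and 92 counts, the LTR5HS Sa libraries 4 and 2, and the nontarget Sp libraries 0 and 2. The gene was tested with dCas9-VPR only because its recruitment libraries were high. The fitted log2 fold change was 5.24 (SE 0.53, edgeR adjusted p = 0.000207). From 145 counts against 8, the recruitment level was 40.1 times the control level, with a 95% exact binomial interval of 19.8 to 94.5. With dCas9-KRAB the recruitment libraries held 1 count each. The LTR5HS Sa controls held 15 and 8 counts and the nontarget Sp controls 25 and 49. The fitted log2 fold change was -3.63 (SE 0.60, edgeR adjusted p = 0.00966). From 2 counts against 97, the control level was 13.1 times the recruitment level, with a 95% exact binomial interval of 3.53 to 110. Both intervals cover counting error only, not the spread between libraries. With dCas9-KRAB the gene was tested only because its controls were high. The call was lost when either dCas9-KRAB recruitment library was left out, which leaves 1 such library. The log2 fold change was then -3.51 without replicate 1 (adjusted p = 0.136) and -3.76 without replicate 2 (adjusted p = 0.0989), within a range of 0.00356 to 0.136 over 13 alternatives.

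NLRP2, a neighbour that starts 131 bp from the GENCODE start of NLRP7 on the opposite strand, rose with CRISPRa. Its recruitment libraries held 25.3 and 55.4 CPM, the LTR5HS Sa controls 9.6 and 18.7 CPM and the nontarget Sp controls 10.4 and 7.52 CPM. The means were 40.4 ± 21.3 CPM on recruitment (SD, n = 2) and 11.6 ± 4.93 CPM in the controls (SD, n = 4). The fold was 3.5 (log2 fold change 1.81, SE 0.38, edgeR adjusted p = 0.00923), and without recruitment replicate 2 it was 1.13 on the log2 scale with an adjusted p of 0.127. Over the 15 alternatives the adjusted p ranged from 1.58e-05 to 0.127.

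No fall of NLRP2 was detected with CRISPRi. Recruitment gave 15.9 and 22.9 CPM, inside and above the control range of 13.5 to 18.5 CPM (log2 fold change 0.25, SE 0.19, edgeR adjusted p = 0.606). The values of NLRP2 and NLRP7 carry a limit of their own. The 2 genes overlap over 13183 bp on opposite strands, no strand setting is stated, and exact copies of their exons occur on 9 of 43 alternate chromosome 19 sequences of hg38. Their lengths in the table are 10.3 and 8.94 times the canonical transcript, whereas no exon of another member had such a copy. How reads shared between copies were counted is not given in the sources used here, so both genes are reported as uncertain.

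**Figure D2:**
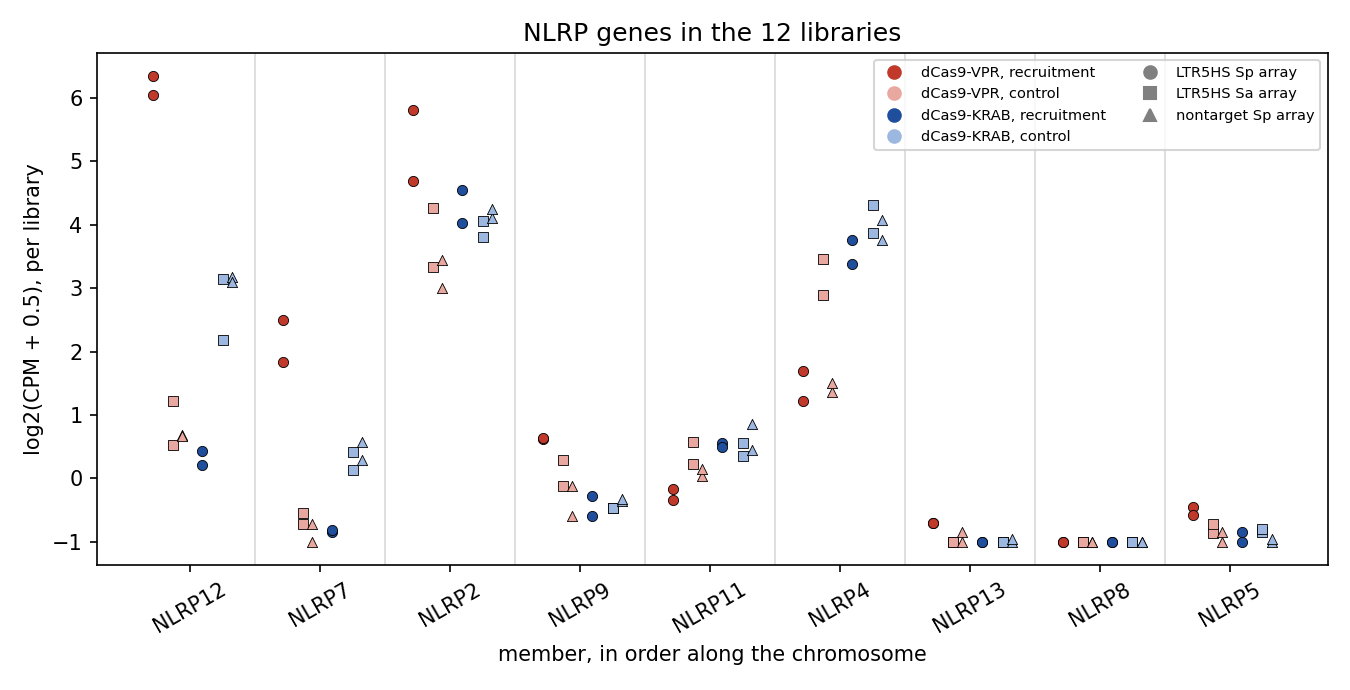
Level of each member in the 12 libraries as log2(CPM + 0.5), with 1 point per library, colour for fusion and condition and shape for the array. NLRP12 is at 65.4 and 80.8 CPM with dCas9-VPR recruitment and at 0.65 and 0.848 CPM with dCas9-KRAB recruitment. The LTR5HS Sa and nontarget Sp points of NLRP4 stand apart with dCas9-VPR.

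NLRP9, an oocyte-expressed member, did not pass the test. It held 18 and 19 counts on recruitment of dCas9-VPR, or 1.03 and 1.06 CPM, against 0.42 and 0.726 CPM with LTR5HS Sa and 0.423 and 0.164 CPM with nontarget Sp. The log2 fold change was 1.26 (SE 0.47, edgeR adjusted p = 0.0843), and the gene was tested only because its recruitment libraries were high. The adjusted p was under 0.05 in 4 of 14 alternatives and ranged from 0.026 to 0.279. With dCas9-KRAB all libraries but 1 held 3 to 7 counts, and the gene was below the filter.

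Among the 7 members compared per length below, NLRP4 had the highest level in the controls. Its recruitment libraries held 1.84 and 2.74 CPM with dCas9-VPR, and the nontarget Sp controls held 2.06 and 2.34 CPM. The LTR5HS Sa controls held 6.9 and 10.5 CPM and stood above both. The pooled comparison gave a log2 fold change of -1.25 (SE 0.68, edgeR adjusted p = 0.211), but the value depended on the control. It was -1.92 against LTR5HS Sa alone (adjusted p = 0.0015) and 0.05 against nontarget Sp alone (adjusted p = 0.924), within a range of 0.0015 to 0.924 over 15 alternatives. The 2 control arrays themselves differed in a comparison chosen after the data had been seen (log2 difference, LTR5HS Sa minus nontarget Sp, 1.98, SE 0.30, edgeR adjusted p = 0.00848), where 4.51% of all genes tested differed. With dCas9-KRAB that difference was 0.18 (adjusted p = 0.792). Recruitment of dCas9-KRAB gave 9.97 and 13.0 CPM against 13.0 to 19.4 CPM in its controls, and the higher recruitment library reached the lowest control (log2 fold change -0.45, SE 0.20, edgeR adjusted p = 0.375).

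NLRP11, whose locus overlaps the NLRP4 locus by 261 bp on the other strand, changed with neither fusion by the test. With dCas9-VPR it held 0.287 and 0.391 CPM on recruitment and 0.528 to 0.979 CPM in the controls (log2 fold change -1.03, SE 0.44, edgeR adjusted p = 0.123). The gene was tested with dCas9-VPR only because its controls were high. With dCas9-KRAB the recruitment values of 0.976 and 0.913 CPM lay inside the control range of 0.77 to 1.3 CPM (log2 fold change -0.05, SE 0.34, edgeR adjusted p = 0.969).

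The remaining members were near or under the count floor. NLRP5 held 4 and 3 counts on recruitment of dCas9-VPR and 0 to 2 in every other library. NLRP13 held 2 and 2 counts on recruitment of dCas9-VPR and at most 1 elsewhere. NLRP8 had 0 counts in all 12 libraries, so its RNA was not detectable at this depth. None of the 3 entered the tests.

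**Figure D3:**
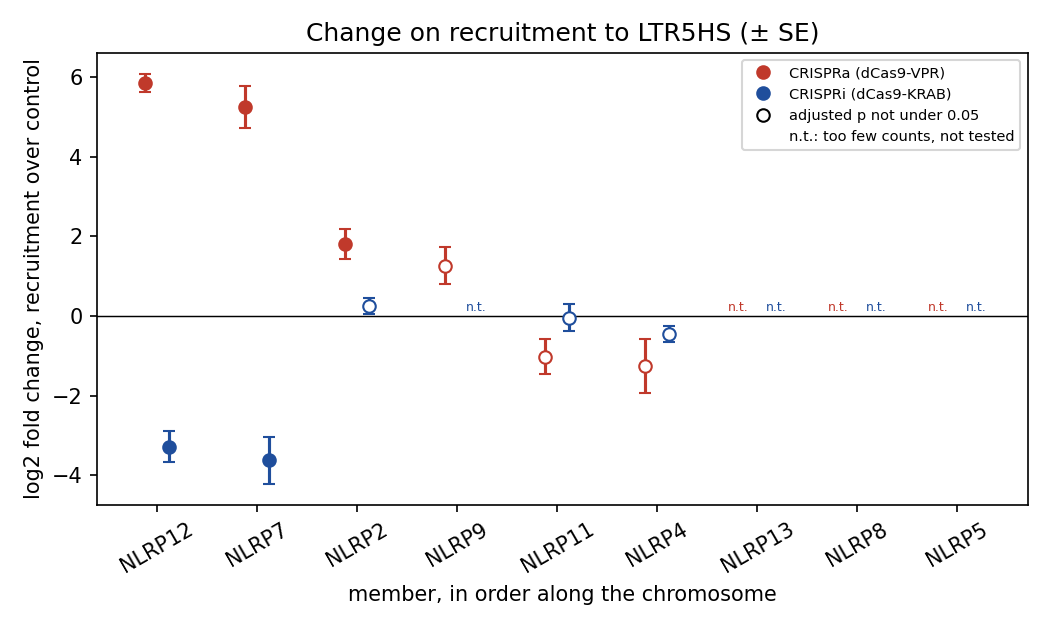
Log2 fold change of recruitment over control (± SE) for each member with CRISPRa (red) and CRISPRi (blue), filled where the adjusted p was under 0.05 and marked n.t. where counts were too few. NLRP12 (5.86 and -3.29) and NLRP7 (5.24 and -3.63) have opposite signs with the 2 fusions.

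Levels per length could be compared among 7 members, leaving out NLRP2 and NLRP7 for the limit above. In the dCas9-KRAB controls NLRP4 held 4.27 ± 0.767 and NLRP12 1.87 ± 0.554 CPM per kb (SD, n = 4), and their libraries did not overlap. NLRP11 followed at 0.242 ± 0.0575 and NLRP9 at 0.0728 ± 0.0106 CPM per kb, again without overlap, and NLRP5, NLRP13 and NLRP8 were lower still. The order was the same in the dCas9-VPR controls. There NLRP12 (0.241 to 0.47 CPM per kb) overlapped NLRP11 (0.131 to 0.242 CPM per kb), and NLRP11 overlapped NLRP9 (0.0469 to 0.208 CPM per kb). On recruitment of dCas9-VPR NLRP12 came first, at 18.9 ± 2.82 CPM per kb (SD, n = 2), ahead of NLRP4 at 0.623 ± 0.173 and NLRP9 at 0.301 ± 0.00548 CPM per kb.

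The response to recruitment was then compared between fusions in a fit of all 12 libraries. These are the libraries of the tests above, so for NLRP12 and NLRP7 the comparison restates changes already called and is a description. NLRP7 also passed the filter with each fusion only through the group in which it was high. The difference, dCas9-VPR minus dCas9-KRAB, was called for 3 of 6 members tested, against 21.0% of 16673 genes. It was 9.16 on the log2 scale for NLRP12 (SE 0.49, edgeR adjusted p = 4.4e-08), 8.87 for NLRP7 (SE 0.82, adjusted p = 5.48e-06) and 1.55 for NLRP2 (SE 0.48, adjusted p = 0.0365). The call of NLRP2 was lost in 9 of the 12 fits that each left out 1 library, where its difference ranged from 0.89 to 2.00 and its adjusted p from 0.00518 to 0.257. Those of NLRP12 and NLRP7 were kept in all 12.

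Genes around the members were also examined. Of the 88 genes that start within 200 kb of a member, 23 could be tested with CRISPRa, and 6 rose and none fell. With CRISPRi 1 of 21 fell. Over all genes 15.7% rose with CRISPRa and 1.94% fell with CRISPRi. Among genes that start within 200 kb of a site cluster the shares were 35.1% of 2660 and 9.6% of 2468. That set is not matched to the neighbours, which were defined by distance from a member. Some neighbours start farther than 200 kb from a cluster. Near NLRP12, MYADM, a myeloid-associated membrane protein gene, held 219 and 221 CPM on recruitment of dCas9-VPR against 72.4 to 85.4 CPM in the controls, a 2.83-fold increase (SE 0.10 on the log2 scale, edgeR adjusted p = 2.27e-05). CACNG8, an AMPA receptor auxiliary subunit gene, rose 3.56-fold (edgeR adjusted p = 5.28e-05). CACNG7, of the same family, had a log2 fold change of 0.90 with CRISPRa (adjusted p = 0.0713) and fell 3.7-fold with CRISPRi (adjusted p = 0.0029), from 6.48 to 8.77 CPM in the controls to 1.57 and 2.48 CPM.

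Around NLRP2 and NLRP7, RDH13, a mitochondrial retinol dehydrogenase gene, rose 1.88-fold with CRISPRa (edgeR adjusted p = 0.0167). Its table length, like theirs, was far above that of its canonical transcript, at 14.8 times. RDH13 starts 96.8 kb from NLRP2 and 3.0 kb from a further cluster. That cluster lies in the RDH13 gene body, holds 1 exact site and overlaps no dCas9 peak. The phosphatase regulatory subunit gene PPP1R12C rose 1.69-fold (adjusted p = 0.00979) and the slow skeletal troponin T gene TNNT1 rose 1.95-fold (adjusted p = 0.0159). None of the 13 genes tested around the other members passed edgeR's test with CRISPRa, with 1 at an unadjusted p under 0.05 and 1 called by DESeq2. ZNF865, a zinc finger gene near NLRP9, had a log2 fold change of 0.53 (adjusted p = 0.0691) and was called with the replicate number as a block (0.51, adjusted p = 0.0477). With CRISPRi none of 12 passed, with 1 and 0 by the same 2 counts.

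**Figure D4:**
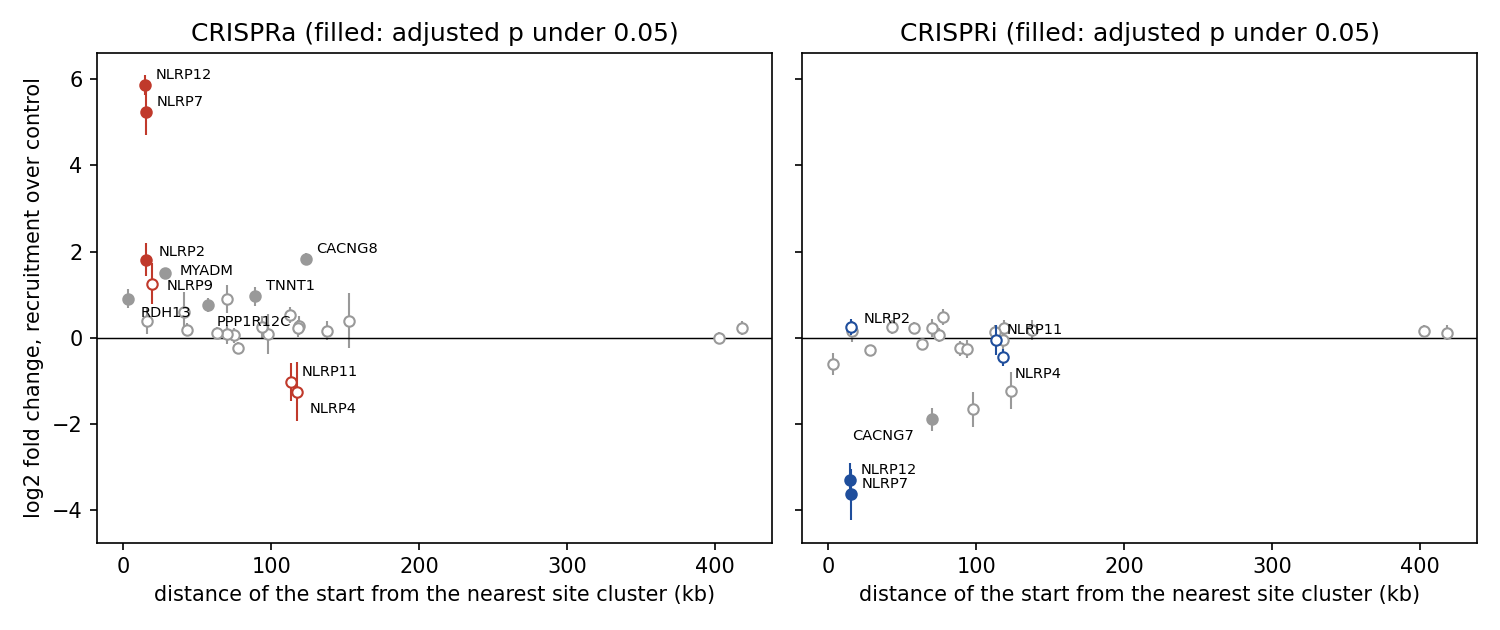
Log2 fold change (± SE) of members (coloured) and neighbouring genes (grey) against the distance of their annotated start from the nearest exact site cluster, in kb, with CRISPRa on the left and CRISPRi on the right. NLRP12, NLRP7 and NLRP2 lie within 20 kb of a cluster, as does NLRP9, whose open symbol marks an adjusted p of 0.0843.

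The members near a cluster can be read beside all genes in that position. Of 402 tested genes with a cluster within 20 kb of their start, 67.4% were higher and 1.74% lower with CRISPRa, and of 361 tested with CRISPRi 36% were lower and none higher. Farther away, 14.4% of 14505 genes were higher with CRISPRa and 1.04% of 13894 lower with CRISPRi.

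NLR genes located elsewhere gave a mixed picture. Of 13 listed, 9 were tested with CRISPRa, and 3 rose and 2 fell, against 15.7% and 12.3% of all genes. DESeq2 called 4. The median log2 fold change was -0.15 against -0.02 over all genes. NLRC4, the adaptor of the NAIP inflammasome, rose 4.96-fold from 1.73 to 2.13 CPM in the controls to 10.1 and 9.89 CPM (edgeR adjusted p = 6.22e-05), and its start lies 10.8 kb from a site cluster. NLRC3, a negative regulator of innate signalling, rose 2.2-fold (adjusted p = 0.0081) and CIITA, the master regulator of MHC class II genes, rose 2.24-fold (adjusted p = 0.0434, and 0.0571 with the replicate number as a block). NLRP1, an inflammasome sensor, was 3.63-fold lower (adjusted p = 0.00562) and NOD1, a peptidoglycan sensor, 1.58-fold lower (adjusted p = 0.0203). These 4 genes start farther from a cluster, at 47.2 kb for CIITA, 240.4 kb for NOD1, 509.2 kb for NLRP1 and 1646.1 kb for NLRC3.

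With CRISPRi none of 7 tested NLR genes elsewhere passed edgeR's test, with 1 at an unadjusted p under 0.05 and 0 called by DESeq2. Inflammasome partners and regulators, such as the adaptor gene PYCARD, gave no call among 8 tested with either fusion, with 2 and 1 at an unadjusted p under 0.05 for CRISPRa and CRISPRi and 0 by DESeq2. CASP1, which encodes caspase-1, had 0 counts in every dCas9-KRAB library and at most 0.264 CPM with dCas9-VPR. The subcortical maternal complex genes gave no edgeR or DESeq2 call among 3 tested with CRISPRa and 4 with CRISPRi, with 1 and 0 at an unadjusted p under 0.05. The responses to the 2 fusions differed for OOEP, a gene of this complex (log2 difference, dCas9-VPR minus dCas9-KRAB, -2.31, SE 0.62, edgeR adjusted p = 0.0171), with -1.87 for CRISPRa (adjusted p = 0.0538) and 0.44 for CRISPRi (adjusted p = 0.523). Such a difference was called for 21.0% of all genes, and not for KHDC3L (adjusted p = 0.546), TLE6 (0.546) or ZBED3 (0.634) of the same list. OOEP held only 2 and 5 counts on recruitment of dCas9-VPR.

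Genes with a pattern most like that of the 2 members with the highest mean CPM over all 12 libraries, NLRP2 (19.1) and NLRP12 (14.8), were found from Pearson's r of log2(CPM + 0.5) over the 12 libraries, among 15145 genes tested with both fusions. The libraries share lines and controls, and r for NLRP12 restates the changes on recruitment already called, so r is descriptive. NLRP7 also passed the filter with each fusion only through the group in which it was high. NLRP7 was the most similar to NLRP12 (r = 0.989), followed by the pseudogene ECEL1P2 (r = 0.988) and the amino acid transporter gene SLC16A10 (r = 0.976). For NLRP2 they were HERC1 (r = 0.958), IQCG (r = 0.925) and ZADH2 (r = 0.903).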

How the data were processed

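For each library and gene the authors deposited whole-number counts that were not normalised. Per the labels and the methods, reads were processed with CASAVA 1.8, cutadapt 1.8.1, HISAT2 2.1.0 (hg38) and featureCounts 1.4.6-p2, and the gene annotation, the strand setting and the handling of multimapping reads are not given in the sources used here. The deposited gene length was used only for levels per kb. The test was that of edgeR 4.0.16, run in R 4.3.3 (filterByExpr, TMM, quasi-likelihood F-test, Benjamini-Hochberg over all genes tested, threshold 0.05). The alternatives included DESeq2 1.42.0, other filters, each control array alone and each library left out. Positions are those of GENCODE 44 on hg38. The guide sequences came from the study's supplement and RefSeq starts from its GRCh38.p14 table. The members, gene lists and rules were chosen with earlier results of these data known. Named genes are all members, called neighbours (at most 10), called list genes (at most 6 a list), and the 3 genes most like each of the 2 most abundant members (by mean CPM over all 12 libraries). Of these, 1 called neighbour is counted but not reported or plotted here. OOEP is named outside this rule, for its interaction call. Replicate numbers came from the labels, and same-numbered libraries deviated together between arrays (r between 0.197 and 0.524 across genes). On simulated data with 200 changed genes edgeR recovered 188 for CRISPRa and 193 for CRISPRi (absolute log2 fold change 2). The changed genes were drawn from those with a mean above 1 CPM, so the recovery does not describe genes below that level. Of its 205 and 213 calls there, 17 and 20 fell on genes simulated without change, shares above the threshold of 0.05. Python 3.11.15 was used for the rest.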

Additional observations from a re-analysis of the deposited data

Results flagged for a closer look

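In the 4 dCas9-KRAB control libraries, NLRP12 stood apart in LTR5HS Sa replicate 2 (4.05 CPM against 8.04 to 8.57 CPM), where the gap to the next library made up 0.883 of the group's range, more than Dixon's test allows at 95%. This was 1 of 12 groups of members examined, and chance alone marks about 1 in 20. The response to recruitment differed between the fusions for NLRP12 (9.16 on the log2 scale), NLRP7 (8.87) and NLRP2 (1.55) by the interaction test. For NLRP12 and NLRP7 this restates the changes called with each fusion in the same libraries. The call of NLRP2 was lost in 9 of the 12 fits that each left out 1 library (adjusted p from 0.00518 to 0.257).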

How the results depend on the processing

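The calls of NLRP12 with both fusions and of NLRP7 with CRISPRa kept their direction and their side of the threshold in every alternative that tested them (the filter of at least 10 counts per library left NLRP7 out). The replicate block changed no call of a member. With CRISPRa 3 members were called, and 5 (4 higher and 1 lower) with the control arrays as separate groups. With each library left out the count was 2 to 4. With CRISPRi 2 were called. The count was 1 with at least 10 counts in every library or with LTR5HS Sa alone as control, where the filter removed NLRP7. The range with a library left out was 1 to 2. Interaction calls numbered 3, and 2 to 3 with a library left out (2 in 9 of 12 fits, each losing NLRP2). Neighbour calls with CRISPRa were 6, 8 by DESeq2 or in one fit of all 12 libraries and 7 with the block (3 to 6 with a library left out, 3 without dCas9-VPR LTR5HS Sp replicate 2). With CRISPRi they were 1, and 3 by DESeq2, 2 in one fit of all 12 libraries and 1 to 2 with a library left out. Signs turned in uncalled values only. These were NLRP4 with CRISPRa against nontarget Sp alone (0.0522), NLRP11 with CRISPRi against LTR5HS Sa alone (0.134) or without dCas9-KRAB nontarget Sp replicate 1 (range with a library left out -0.131 to 0.129), and NLRP2 with CRISPRi without dCas9-KRAB LTR5HS Sp replicate 2 (range -0.0406 to 0.492). The causes were not tested. Over all genes the block gave 30.5% called with CRISPRa and 3.27% with CRISPRi. Allowing 1 mismatch left 4 members within 20 kb of a cluster. Depth limits NLRP5, NLRP8, NLRP9 and NLRP13.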
